A study of Mus musculus with 10 samples.

Results

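The genes described here are 26 genes of cholesterol synthesis and other targets of the transcription factor SREBP2, measured in mouse liver among 19505 named genes on the array. They were taken by their symbol in the platform annotation. A named probe set was found for 24 of them. The value varied over the 10 arrays for 19 of these and was flat (a log2 SD under 0.001) for the other 5. Acat2 and Tm7sf2 had no named probe set and are not analysed here. Among all 22206 probe sets, 19767 (89.0%) were flat, and 2439 are called varying below.

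Liver RNA of 10 male C57BL/6NCrSlc mice, bought at 8 weeks of age, was hybridized to 10 Clariom S Mouse Arrays (1 per mouse). The iso-α-acids diet group (5 mice, the iso-α-acids group below) ate AIN-93G with 0.5% (w/w) iso-α-acids, the bitter acids of beer, for 1 week, and the control diet group (5 mice, the control group below) was pair-fed AIN-93G alone. Acetaldehyde (200 mg/kg, i.p.) was then given to every mouse in both groups 5 h before the liver was taken, so the arrays compare diets after acetaldehyde and hold no untreated liver. The mice were chosen as average individuals of their group by serum enzyme values. Values are log2 levels, and a difference is the iso-α-acids group minus the control group, with its SE (standard error). Replicates are single mice, numbered 1 to 5 in each group as in the labels.

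Cholesterol is built from acetyl-CoA through mevalonate, farnesyl diphosphate, squalene and lanosterol. When sterols in the membrane of the endoplasmic reticulum are scarce, SREBP2 is carried to the Golgi apparatus by its escort SCAP and cut, and the freed part enters the nucleus and activates nearly every gene of this pathway. When sterols are plentiful, INSIG proteins hold the complex back. In the promoters of these genes SREBP2 binds sterol regulatory elements together with the general factors NF-Y and Sp1, and the liver is a main site of the pathway.

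The promoters of 5 of these genes are printed to show where NF-Y motifs lie in genes that differed between the livers (Hmgcs1, Idi1, Nsdhl and Cyp51) and in Ebp, which differed little. Each is the run of 250 bases before the annotated transcription start, from RefSeq on the mouse build GRCm38.p6, read 5′ to 3′ along the gene. Capitals mark the NF-Y motif CCAAT on either strand (ATTGG on the opposite strand) and the sterol regulatory element TCACNCCAC.
Hmgcs1 (chr13:119690101-119690350, plus strand): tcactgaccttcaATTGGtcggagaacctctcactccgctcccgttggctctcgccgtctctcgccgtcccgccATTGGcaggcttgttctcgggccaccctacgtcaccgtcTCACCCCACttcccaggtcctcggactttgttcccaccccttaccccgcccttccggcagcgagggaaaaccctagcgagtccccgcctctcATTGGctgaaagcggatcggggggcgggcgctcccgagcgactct
Idi1 (chr13:8885356-8885605, plus strand): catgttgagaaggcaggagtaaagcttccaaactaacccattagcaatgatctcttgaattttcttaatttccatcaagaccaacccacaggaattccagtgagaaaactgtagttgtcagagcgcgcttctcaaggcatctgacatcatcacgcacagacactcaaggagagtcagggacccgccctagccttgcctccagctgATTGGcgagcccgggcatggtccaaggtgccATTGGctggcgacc
Nsdhl (chrX:72918271-72918520, plus strand): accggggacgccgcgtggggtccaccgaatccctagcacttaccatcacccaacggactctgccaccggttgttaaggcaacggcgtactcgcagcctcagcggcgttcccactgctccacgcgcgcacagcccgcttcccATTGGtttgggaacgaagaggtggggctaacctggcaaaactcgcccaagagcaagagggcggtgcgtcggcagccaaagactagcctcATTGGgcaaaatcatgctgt
Cyp51 (chr5:4104698-4104947, minus strand): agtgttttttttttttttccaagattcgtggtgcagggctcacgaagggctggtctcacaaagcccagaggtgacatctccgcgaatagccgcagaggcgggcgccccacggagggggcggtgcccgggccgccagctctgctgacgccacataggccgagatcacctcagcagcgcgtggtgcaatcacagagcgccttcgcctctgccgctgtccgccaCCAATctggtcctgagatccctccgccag
Ebp (chrX:8193513-8193762, minus strand): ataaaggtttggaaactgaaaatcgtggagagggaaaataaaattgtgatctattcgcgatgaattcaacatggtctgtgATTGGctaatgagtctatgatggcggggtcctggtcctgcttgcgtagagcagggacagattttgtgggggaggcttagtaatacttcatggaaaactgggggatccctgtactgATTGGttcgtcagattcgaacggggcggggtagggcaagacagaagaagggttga
Hmgcs1 held the only sterol regulatory element of these letters among the printed runs, at position -137 from the start, between NF-Y motifs at -176 and -45. In Idi1 the NF-Y motifs lay at -45 and -14, in Nsdhl at -109 and -20, and in Cyp51 at -29. Ebp also held NF-Y motifs, at -170 and -55.

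In 4 of the 5 livers of the iso-α-acids group (replicates 2 to 5), genes of cholesterol synthesis stood above the control group from the first steps to the last. In the remaining liver of the same group, replicate 1, they stood below it. Replicates 2 to 5 lay above all 5 control mice in 14 of the 19 varying genes, against 24.4% of all varying probe sets. Replicate 1 lay below all 5 control mice in 18 of the 19, against 39.5% of all varying probe sets. In 13 genes both held at once, a pattern of 6.36% of varying probe sets. No gene had the whole iso-α-acids group above all controls, against 12.1% of varying probe sets. Over the 19 genes, the median distance from the control mean was -0.90 in replicate 1 and 0.72, 0.66, 0.59 and 0.74 in iso-α-acids replicates 2 to 5. In control replicates 1 to 5 it was 0.05, 0.33, -0.07, -0.05 and -0.13.

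**Figure D1:**
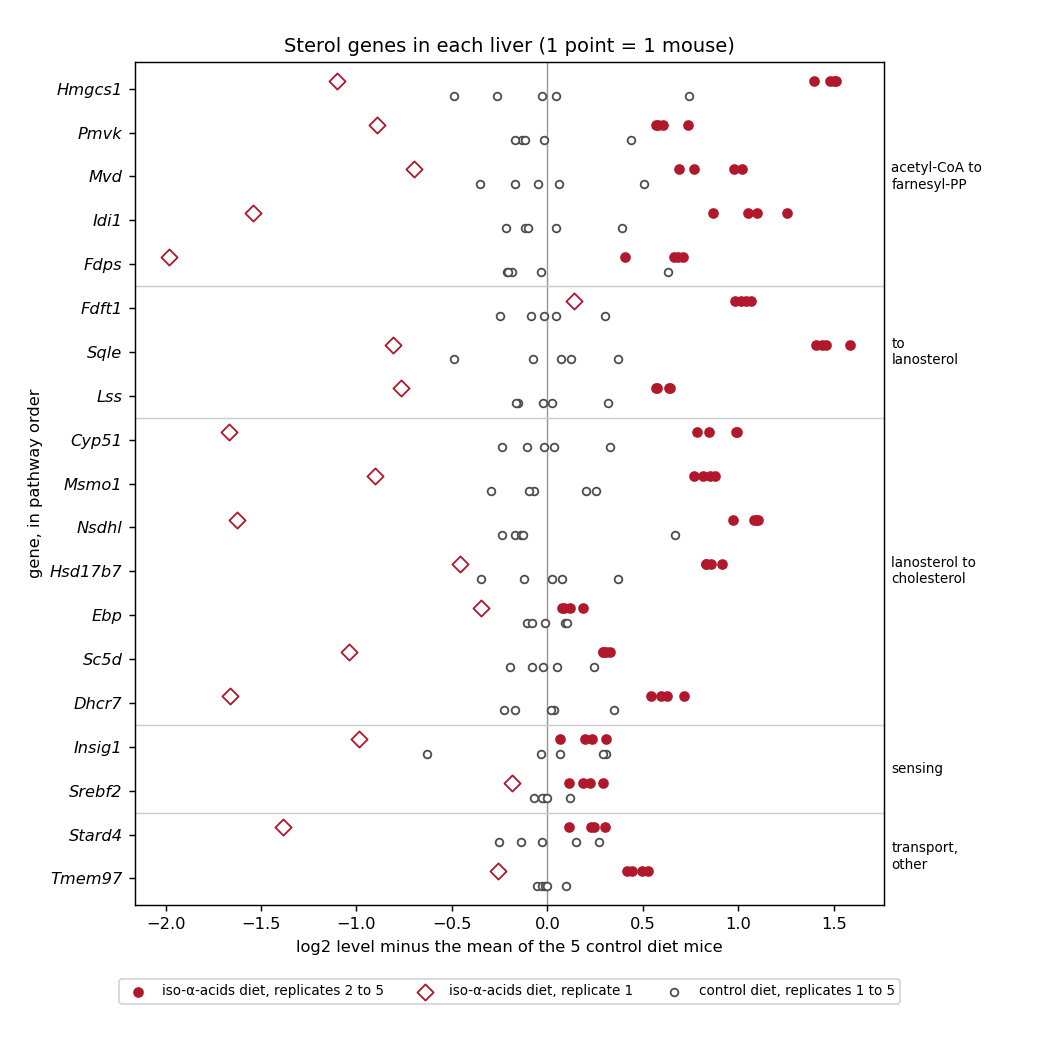
Log2 level of each of the 19 varying sterol genes in each liver, minus the mean of the 5 control diet mice (horizontal axis), with genes in pathway order from top to bottom. Filled circles are replicates 2 to 5 and diamonds replicate 1 of the iso-α-acids group, and open circles are the 5 control diet mice. Replicate 1 is the lowest of the 10 mice in 18 genes, and replicates 2 to 5 lie above every control in 14.

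With all 10 mice, 0 of the 24 genes passed limma's test in either direction (Benjamini-Hochberg adjusted p under 0.05 over all probe sets), while 0.590% of all probe sets were called higher and 0.171% lower. At an unadjusted p under 0.05, 1 gene was higher (Fdft1) and 1 lower (Ggps1, a flat probe set), with 4.81% of all probe sets higher and 5.02% lower by the same rule, so these counts were near the background. Of the 19 varying genes 17 had a positive log2 difference, with a median of 0.33, against 0.01 over all varying probe sets. Rank products was the test named in the study's methods. In data simulated for 5 against 5 arrays it called 377 of 22006 unchanged probe sets, and limma called 11. Its calls over all probe sets are therefore not read as held to an FDR of 0.05. By this test 16 of the 24 genes were upregulated (FDR under 0.05) and 0 downregulated. Among the 16 were Fdps and Sc5d, with log2 differences of only 0.10 and 0.04. Of all probe sets, rank products called 3.72% upregulated and 3.19% downregulated. On varying probe sets alone it called 5 genes (Fdft1, Hmgcs1, Idi1, Nsdhl and Sqle), with 3.81% called, and limma called Fdft1 alone (adjusted p = 0.0140), with 13.4% called higher.

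Leaving out replicate 1 of the iso-α-acids group changed the calls. Of the 24 genes 11 then passed limma's test as higher and 0 as lower, while 1.57% of all probe sets were called higher and 0.662% lower. The median log2 difference of the 19 varying genes was 0.62, against 0.02 over all varying probe sets, and all 19 differences were positive. Over varying probe sets alone and without this mouse 16 genes passed, with 26.6% called higher. This mouse was singled out by its values, those of these genes among them, so the results without it describe the other 9 mice. In another gene it lay with its group. Cyp4a14, a fatty acid hydroxylase gene, was at 12.90 in replicate 1 and at 12.51 to 12.71 in replicates 2 to 5, against 6.36 to 6.58 in the control group.

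**Figure D2:**
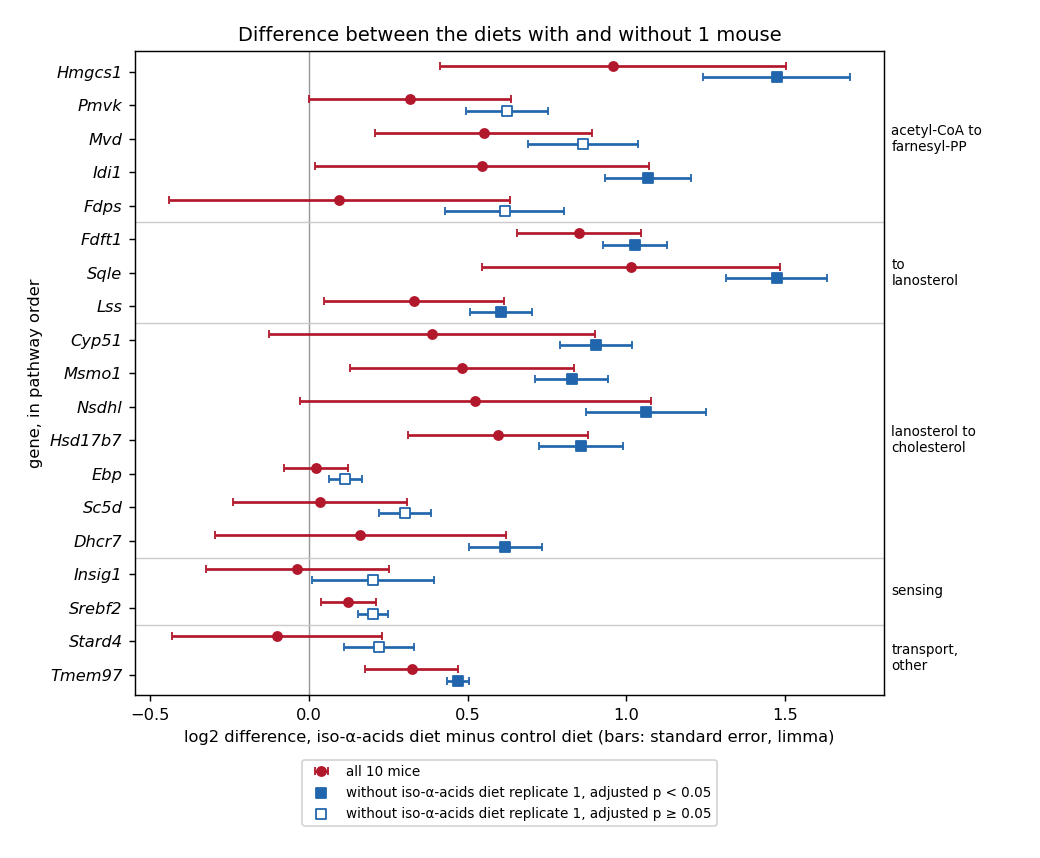
Log2 difference between the iso-α-acids group and the control group (horizontal axis) for the 19 varying sterol genes in pathway order, with limma's standard error as bars. Circles are all 10 mice, and squares leave out replicate 1 of the iso-α-acids group, filled where the adjusted p was under 0.05. With all 10 mice no gene passed, and without replicate 1 the 11 filled squares passed.

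The first steps turn acetyl-CoA into farnesyl diphosphate. Hmgcs1 encodes the cytosolic HMG-CoA synthase, which makes the precursor of mevalonate. Its level was 9.11, 11.72, 11.71, 11.61 and 11.69 in iso-α-acids replicates 1 to 5, against 10.18, 10.95, 9.72, 10.26 and 9.95 in the control group. Replicates 2 to 5 lay within a range of 0.11, all above the highest control, and replicate 1 lay below the lowest. The means were 11.17 ± 1.15 in the iso-α-acids group and 10.21 ± 0.464 in the control group (SD, n = 5 each), with a log2 difference of 0.96 (SE 0.544, adjusted p = 0.646 from limma). Without replicate 1 it was 1.47 (SE 0.230, adjusted p = 0.0234 from limma), a 2.77-fold higher level.

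Pmvk, which phosphorylates mevalonate phosphate, was at 7.41 in replicate 1 and at 8.87 to 9.04 in iso-α-acids replicates 2 to 5, against 8.13 to 8.74 in the control group. Mvd, whose enzyme removes a carboxyl group to give isopentenyl diphosphate, was at 7.20 in replicate 1 and at 8.59 to 8.91 in replicates 2 to 5, against 7.55 to 8.40 in controls. In both genes the 5 controls fell into the gap between replicate 1 and the rest of the iso-α-acids group. Their log2 differences were 0.32 (SE 0.318) for Pmvk and 0.55 (SE 0.342) for Mvd with all mice. Without replicate 1 Pmvk stood at 0.62 (adjusted p = 0.0628 from limma) and Mvd at 0.86 (adjusted p = 0.0579 from limma), neither past the threshold.

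Idi1 encodes the isomerase that makes dimethylallyl diphosphate, the starter of the isoprenoid chain. Its level was 6.76, 9.40, 9.56, 9.17 and 9.35 in iso-α-acids replicates 1 to 5, against 8.35, 8.69, 8.19, 8.09 and 8.20 in the control group. Replicate 1 was 1.54 below the control mean, and replicates 2 to 5 cleared the highest control by 0.48 or more. The means were 8.85 ± 1.17 in the iso-α-acids group and 8.31 ± 0.236 in the control group (SD, n = 5 each), with a log2 difference of 0.54 (SE 0.525, adjusted p = 0.834 from limma). Without replicate 1 it was 1.07 (SE 0.135, adjusted p = 0.0101 from limma).

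Fdps, the synthase of farnesyl diphosphate, held the lowest replicate 1 of all 19 genes relative to controls. Its level was 6.86, 9.55, 9.51, 9.25 and 9.53 in iso-α-acids replicates 1 to 5, against 8.66, 9.48, 8.63, 8.81 and 8.64 in the control group. Replicate 1 was 3.95-fold below the control mean, and control replicate 2 reached into the range of replicates 2 to 5. Between the diets the log2 difference was 0.10 with all mice (SE 0.535, adjusted p = 0.980 from limma) and 0.62 without replicate 1 (SE 0.188, adjusted p = 0.208 from limma). Mvk, the kinase of mevalonate, and Ggps1, which makes geranylgeranyl diphosphate for protein prenylation, were flat at 7.29 and 7.19, so that neither a change nor a lack of it can be read there.

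The middle steps join farnesyl units into squalene and close it into lanosterol. Fdft1 encodes squalene synthase, which commits farnesyl diphosphate to sterols. Its level was 9.63, 10.47, 10.50, 10.55 and 10.53 in iso-α-acids replicates 1 to 5, against 9.53, 9.79, 9.40, 9.47 and 9.23 in the control group. Fdft1 alone among the varying genes had a replicate 1 that was not below the controls. This mouse lay inside their range, 0.14 above their mean. The means were 10.33 ± 0.398 in the iso-α-acids group and 9.48 ± 0.202 in the control group (SD, n = 5 each), with a log2 difference of 0.85 (SE 0.195, unadjusted p = 0.0022, adjusted p = 0.129 from limma). Without replicate 1 it was 1.03 (SE 0.101, adjusted p = 0.00354 from limma). Arrays were also weighted by how closely they followed their own group, as estimated from these same values. Replicate 1 received a weight of 0.522 and the others 0.946 to 1.20. With these weights Fdft1 passed with an adjusted p of 0.0381 from limma, and no other of these genes did. The weights are no separate measure of array quality. Without control replicate 2, the highest control in this gene, the groups did not overlap in Fdft1. The share of all varying probe sets without overlap in that setting was not computed.

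Sqle, the epoxidase that adds oxygen to squalene and a rate-limiting step of the pathway, had the largest log2 difference of the 19 genes with all mice. Its level was 6.02, 8.42, 8.24, 8.29 and 8.27 in iso-α-acids replicates 1 to 5, against 6.90, 7.20, 6.95, 6.34 and 6.76 in the control group. The lowest of replicates 2 to 5 was 1.03 above the highest control, the widest such gap of the 19 genes, and replicate 1 lay below the lowest control by 0.32. The means were 7.85 ± 1.02 in the iso-α-acids group and 6.83 ± 0.317 in the control group (SD, n = 5 each), with a log2 difference of 1.02 (SE 0.469, adjusted p = 0.542 from limma). Without replicate 1 it was 1.47 (SE 0.160, adjusted p = 0.00525 from limma), a 2.77-fold higher level.

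Lss encodes lanosterol synthase, which folds the squalene chain into the ring system. It was at 8.44 in replicate 1 and at 9.78 to 9.85 in iso-α-acids replicates 2 to 5, against 9.04 to 9.52 in the control group. Replicates 2 to 5 again formed a tight set above every control, with an SD of 0.0382, against 0.194 among the 5 controls. The log2 difference was 0.33 (SE 0.282, adjusted p = 0.796 from limma) with all mice and 0.61 (SE 0.0975, adjusted p = 0.0257 from limma) without replicate 1.

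The late steps trim methyl groups from lanosterol and move its double bonds. Cyp51, the cytochrome P450 that removes the first methyl group, was at 7.31, 9.97, 9.76, 9.82 and 9.96 in iso-α-acids replicates 1 to 5, against 8.96, 9.30, 9.01, 8.73 and 8.87 in the control group. Replicate 1 was 3.17-fold below the control mean, while the other 4 mice exceeded every control. Its log2 difference was 0.39 (SE 0.513, adjusted p = 0.890 from limma) with all mice and 0.90 (SE 0.114, adjusted p = 0.00991 from limma) without replicate 1.

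Msmo1, Nsdhl and Hsd17b7 encode the oxidase, dehydrogenase and ketoreductase that take off the next methyl groups. Msmo1 was at 6.80 in replicate 1 and at 8.47 to 8.57 in iso-α-acids replicates 2 to 5, against 7.40 to 7.95 in the control group. Nsdhl was at 7.62, 10.34, 10.33, 10.22 and 10.35 in iso-α-acids replicates 1 to 5, against 9.08, 9.92, 9.01, 9.11 and 9.12 in the control group. Hsd17b7 was at 8.23 in replicate 1 and at 9.51 to 9.60 in replicates 2 to 5, against 8.33 to 9.05 in controls. The same order held in all 3 genes, with replicate 1 lowest, the controls next and replicates 2 to 5 on top. In Nsdhl, control replicate 2 stood 0.84 above the mean of the other controls. The log2 differences with all mice were 0.48 for Msmo1, 0.52 for Nsdhl and 0.60 for Hsd17b7. All 3 passed without replicate 1, Msmo1 with 0.83 (adjusted p = 0.0143 from limma), Nsdhl with 1.06 (adjusted p = 0.0362 from limma) and Hsd17b7 with 0.86 (adjusted p = 0.0216 from limma).

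Ebp, the sterol isomerase that shifts a ring double bond, was the late enzyme with the smallest difference. Its level was 10.12, 10.54, 10.65, 10.55 and 10.58 in iso-α-acids replicates 1 to 5, against 10.56, 10.45, 10.57, 10.36 and 10.39 in the control group. Replicates 2 to 5 and the controls overlapped. The log2 difference was 0.02 (SE 0.102, adjusted p = 0.976 from limma) and 0.12 without replicate 1 (SE 0.0517, adjusted p = 0.429 from limma).

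Sc5d, the desaturase that follows, was at 11.22 in replicate 1 and at 12.55 to 12.59 in replicates 2 to 5, against 12.07 to 12.51 in controls. Replicates 2 to 5 cleared the highest control by only 0.05. Its log2 difference was 0.04 with all mice and 0.30 without replicate 1 (SE 0.0815, adjusted p = 0.147 from limma). Dhcr7, the reductase that turns dehydrocholesterol into cholesterol, was at 8.28, 10.66, 10.57, 10.54 and 10.48 in iso-α-acids replicates 1 to 5, against 9.71, 10.29, 9.98, 9.77 and 9.96 in the control group. Replicate 1 was 3.16-fold below the control mean, and replicates 2 to 5 were above every control. Between the diets the log2 difference was 0.16 (SE 0.458, adjusted p = 0.958 from limma) with all mice and 0.62 (SE 0.116, adjusted p = 0.0435 from limma) without replicate 1. Lbr, a protein of the inner nuclear membrane that also reduces sterols, was flat at 7.78.

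The sensing genes had small differences between the diets. Srebf2, which encodes SREBP2 itself and is among its own targets, was at 9.15, 9.52, 9.45, 9.62 and 9.56 in iso-α-acids replicates 1 to 5, against 9.32, 9.45, 9.30, 9.33 and 9.26 in the control group. Replicate 1 was the lowest of the 10 mice, and control replicate 2 met the lowest of replicates 2 to 5. The log2 difference was 0.13 (SE 0.0870, adjusted p = 0.723 from limma) and 0.20 without replicate 1 (SE 0.0472, adjusted p = 0.0949 from limma).

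Insig1, whose protein retains the SREBP2 complex when sterols are plentiful, was at 10.21, 11.27, 11.51, 11.40 and 11.44 in iso-α-acids replicates 1 to 5, against 11.51, 11.49, 11.17, 11.26 and 10.57 in the control group. The diets overlapped apart from replicate 1, which was 1.98-fold below the control mean. Its log2 difference was -0.04 (SE 0.289, adjusted p = 0.986 from limma) and 0.20 without replicate 1 (SE 0.193, adjusted p = 0.775 from limma). The sensing genes together held 0 of the 11 calls made without replicate 1, the 5 varying genes of the first steps held 2, the 3 middle genes 3, the 7 varying late genes 5 and the transport genes 1. A difference between these steps was not tested.

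Among genes of sterol transport and other SREBP2 targets, Tmem97, an endoplasmic reticulum protein with a role in sterol handling, was at 9.05, 9.75, 9.72, 9.83 and 9.80 in iso-α-acids replicates 1 to 5, against 9.25, 9.40, 9.27, 9.29 and 9.30 in the control group. Both replicates 2 to 5 and the controls were tight sets, and replicate 1 lay below them. Its log2 difference was 0.32 (SE 0.146, adjusted p = 0.524 from limma). Without replicate 1 it was 0.47 (SE 0.0352), with the smallest adjusted p of the 19 genes (0.000965 from limma).

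Stard4, a carrier of cholesterol through the cytosol, was at 7.28, 8.78, 8.91, 8.89 and 8.97 in iso-α-acids replicates 1 to 5, against 8.81, 8.94, 8.53, 8.64 and 8.41 in the control group. The diets overlapped here too, apart from replicate 1. Its log2 difference was -0.10 (SE 0.330, adjusted p = 0.965 from limma) and 0.22 without replicate 1 (SE 0.111, adjusted p = 0.493 from limma). Npc1l1, a transporter that takes up cholesterol, was flat at 5.60, and Nsg1, a protein of endosomes known from neurons, was flat at 6.53.

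Within each diet group, most sterol genes also shared the mouse at one extreme, while the order of the other mice differed by gene. In the control group, replicate 2 was the highest control in 17 of the 19 genes (Ebp and Insig1 being the others), against 19.8% of varying probe sets. The range of replicates 2 to 5 of the iso-α-acids group was smaller than that of any 4 controls in 13 of the 19, against 51.5% of varying probe sets, so narrow ranges were common over the array. The SD of the whole iso-α-acids group was above that of the 5 controls in all 19 genes, and that of replicates 2 to 5 was below the control SD in 18. Replicate 1 was over 1 log2 unit below the control mean in 8 genes (Hmgcs1, Idi1, Fdps, Cyp51, Nsdhl, Sc5d, Dhcr7 and Stard4). For this count and the counts of SDs, the share over all varying probe sets was not computed. They are therefore not read as particular to the sterol genes.

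Of 25 other genes of sterol handling and SREBP2 control, 16 had a named probe set and 9 varied, and 0 passed limma's test with all mice. The largest differences were those of Rdh11, a retinal reductase gene also known as an SREBP target, with 0.44 (SE 0.431, adjusted p = 0.836 from limma), and Cyb5a, which encodes an electron donor for sterol oxidases, with 0.33 (SE 0.0813, adjusted p = 0.155 from limma). Rdh11 followed the sterol genes, at 7.00 in replicate 1 and 8.93 to 9.14 in replicates 2 to 5, against 7.98 to 8.79 in controls, and its difference was 0.85 without replicate 1 (adjusted p = 0.0562 from limma). Cyb5a did not, with replicate 1 at 11.93, the highest of the 10 mice. Without replicate 1, Cyb5b, a cytochrome gene of the outer mitochondrial membrane, named for this call, passed with 0.30 (adjusted p = 0.0418 from limma).

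Genes of fatty acid synthesis, which the related factor SREBP1 controls, were also low in replicate 1. All 16 with a named probe set varied, and replicate 1 was below all controls in 14 of them, against 39.5% of varying probe sets. Replicates 2 to 5 were above all controls in only 2 of the 16, against 24.4% of varying probe sets. The same held in 14 of the 19 sterol genes, and the difference between the lists was not tested. Control replicate 2 was the highest control in 14 of the 16, against 19.8% of varying probe sets. Their median log2 difference was 0.01 with all mice and 0.33 without replicate 1, and 0 passed limma's test. Me1, which makes NADPH for lipid synthesis, had the largest positive difference with 0.94 (SE 0.681), and Thrsp, a lipogenic regulator, the largest negative one with -0.55 (SE 0.695). Both values rested on few mice. Thrsp changed sign to 0.11 without replicate 1 of the iso-α-acids group, and Me1 was at 1.45 without it and at 0.54 without control replicate 3. Without replicate 1, Elovl5, a fatty acid elongase gene named for this call, passed with 0.45 (adjusted p = 0.0433 from limma).

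LXR is the receptor that answers to excess sterol. Of 8 varying targets of LXR, 0 passed with all mice. Pltp, a phospholipid transfer protein gene, had the largest difference with 1.08 (SE 0.370, adjusted p = 0.346 from limma). It was at 8.48 in replicate 1 and 10.26 to 10.39 in replicates 2 to 5, against 8.68 to 9.02 in controls, and passed without replicate 1 (1.45, adjusted p = 0.000106 from limma). Cyp7a1, the rate-limiting enzyme of bile acid synthesis, was at 10.56 in replicate 1 and 8.65 to 9.07 in replicates 2 to 5, against 8.71 to 9.34 in controls (log2 difference 0.35, SE 0.355). Without replicate 1 its difference was 0.018. Replicate 1 was the highest of the 10 mice in 5 of the 8 LXR targets, against 27.6% of all varying probe sets.

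**Figure D3:**
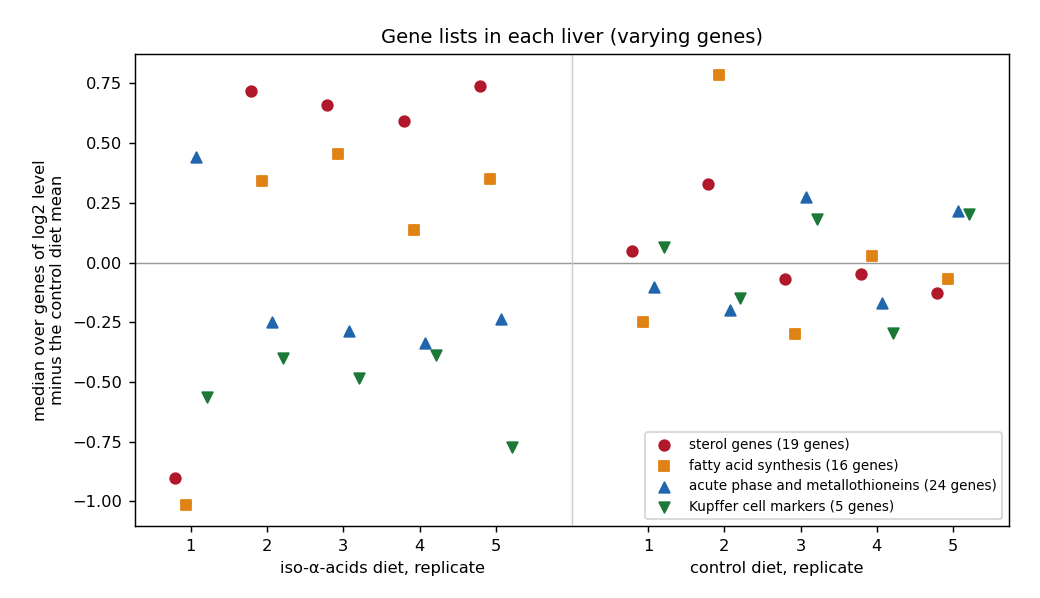
Median over the varying genes of each list of the log2 level minus the control diet mean (vertical axis) in each mouse, with the iso-α-acids group on the left and the control group on the right. Circles are the 19 sterol genes, squares 16 genes of fatty acid synthesis, upward triangles 24 acute phase and metallothionein genes and downward triangles 5 Kupffer cell markers. In replicate 1 of the iso-α-acids group the sterol genes lie at -0.90 and the acute phase genes at 0.44.

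Other genes moved with the same mouse. Acute phase and metallothionein genes, which the liver raises in inflammation and stress, had a median distance from the control mean of 0.44 in replicate 1 and of -0.34 to -0.23 in iso-α-acids replicates 2 to 5, against -0.20 to 0.28 in the control group. Replicate 1 was the highest of the 10 mice in 18 of the 24 varying genes of this list, against the same 27.6%, and replicates 2 to 5 were below all controls in 12, against 12.7% of varying probe sets. The largest log2 differences were those of Saa1 with -1.36 (SE 0.601, adjusted p = 0.515 from limma) and Saa2 with -1.29 (SE 0.754, adjusted p = 0.661 from limma), both serum amyloid genes, and 0 of the list passed with all mice. Without control replicate 3, Saa2 was at -0.79. In both genes replicate 1 lay within the control range, at 9.22 against 8.40 to 10.86 in Saa1 and at 9.14 against 8.08 to 11.47 in Saa2. The largest distances of replicate 1 from the control mean in this list were 4.42 in Mt2 and 4.02 in Mt1, metallothionein genes named for these values. Without replicate 1, Il1r1, the interleukin 1 receptor gene and named for this call, passed as lower with -0.97 (adjusted p = 0.00808 from limma). The part of this response in the sterol values was not tested.

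All 5 varying Kupffer cell markers were lower in the iso-α-acids group at an unadjusted p under 0.05, against 14.6% of varying probe sets, and 0 passed after adjustment. In 4 of them the groups did not overlap, against 7.30% of varying probe sets with the whole iso-α-acids group below all controls. Clec4f had the largest difference with -0.66 (SE 0.125, adjusted p = 0.0683 from limma) and was named for it. These markers lay at -0.56 in replicate 1 and at -0.77 to -0.39 in iso-α-acids replicates 2 to 5, against -0.30 to 0.20 in the control group, so replicate 1 did not stand apart from its group in them. Of the varying sinusoidal endothelial (3), stellate (1) and cholangiocyte (1) markers 0 passed, and the neutrophil and lymphocyte markers were all flat. The hepatocyte genes Alb, Apoa1 and Ttr were flat at 13.2, 13.2 and 13.1, near the top of the array's range, so the defining markers of the labelled tissue were present. Of 3 varying hepatocyte markers 0 passed with all mice. Without replicate 1, Cps1, a urea cycle gene named for this call, passed as lower with -0.20 (adjusted p = 0.0467 from limma), while replicate 1 was at 12.55, above the controls at 12.28 to 12.39. Cyp2e1, a cytochrome P450 gene, had a log2 difference of 0.19 (SE 0.0689, adjusted p = 0.377 from limma), with the whole iso-α-acids group above all controls. In bulk liver, fewer cells of a type and less RNA per cell cannot be told apart.

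Promoter windows of 300 bases, 250 before and 50 after the start, were found for 15 of the 19 varying genes. Fdps, Fdft1, Sqle and Stard4 were not among them. The NF-Y motif CCAAT, searched on both strands, was in a window of all 15 genes, against 47.8% of 1748 varying genes and 41.1% of all 27025 genes with a window. Hmgcs1 and Nsdhl held 4 such motifs, Msmo1 and Hsd17b7 held 3, and the other genes 1 or 2. The Sp1 motif GGGCGG was in 14 of the 15, against 58.2% of varying genes and 38.2% of all genes. The sterol regulatory element TCACNCCAC was in 1 of the 15 (Hmgcs1), against 2.06% and 1.44%, and the E-box CACGTG in 4, against 11.2% and 8.09%. No matches of different motifs overlapped in these windows (0 overlaps). Ebp, with a small difference between the diets, and Idi1, with a larger one, each held 2 NF-Y motifs. A match of letters is not a binding site, and forms of the sterol regulatory element with other letters were not searched.

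**Figure D4:**
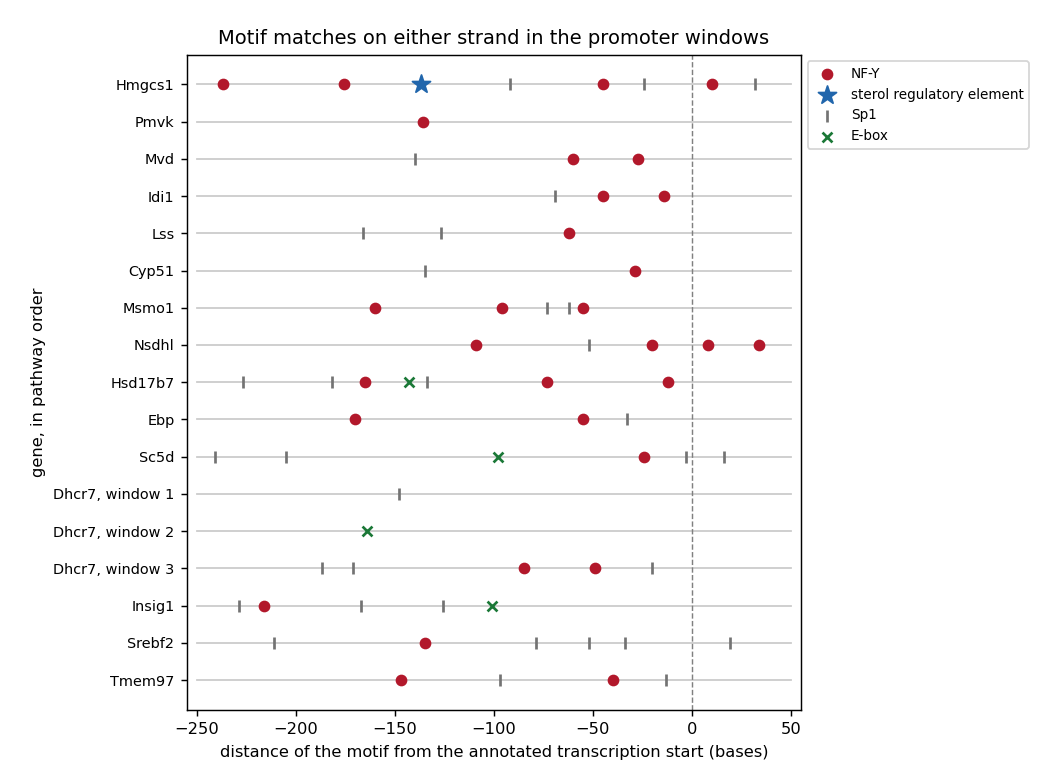
Matches to the NF-Y motif (circles), the sterol regulatory element (star), the Sp1 motif (bars) and the E-box (crosses) in the promoter windows of the 15 varying sterol genes with a window, by distance in bases from the annotated start (horizontal axis, dashed line at the start). Dhcr7 has 3 annotated windows. Every gene has at least 1 NF-Y match, and Hmgcs1 alone has the sterol regulatory element of the searched letters (TCACNCCAC).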

How the data were processed

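The measurement was the RNA level per probe set in 10 livers (5 for each diet), each from another mouse and on its own array. The deposited values are log2 levels that the authors made from CEL files by quantile normalization and summarization with qFARMS, a factor analysis of the probes, in R and Bioconductor. Versions and log base are not given in the sources used here. Base 2 was taken from the value range, 4.94 to 13.37. Where the probes of a set vary independently, qFARMS shrinks the set toward a constant. In all, 89.0% were flat, and no change can be seen in those. The values were used without further normalization, and array medians ran from 6.71 to 6.72. The number of arrays limits the precision.

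Symbols came from the platform annotation (19572 probe sets with 1 symbol, 2634 with none). All 19572 gene identifiers were found in RefSeq for GRCm38.p6, and 0 symbols changed. Of several probe sets of a gene the one with the highest mean was used. Groups were compared with limma 3.58.1 (functions lmFit and eBayes, no trend, prior df 0.348, two-sided, Benjamini-Hochberg over 22206 probe sets, threshold 0.05) in R 4.3.3. Rank products, the methods' test, was the median of 120 pairings of the arrays, tested against a gamma distribution. In data simulated for 5 against 5 arrays, limma recovered 44 of 50 probe sets changed by 1 log2 unit and called 11 of 22006 unchanged ones, and rank products recovered 49 and called 377. Alternatives were leaving out each mouse, another normalization, filters on dim (25%) or flat probe sets, array weights, a replicate block and a threshold of 0.01. Leaving out flat probe sets together with replicate 1 was an alternative chosen after seeing the data. The 26 genes and the other lists were chosen with earlier results of these data known. The text names all 26 genes, and of the lists of other sterol genes, fatty acid synthesis, LXR targets and acute phase genes up to 4 that passed limma's test or, where none passed, the 2 with the largest difference. Marker lists were outside this rule. Cyb5b, Elovl5, Il1r1, Mt1, Mt2, Clec4f, Cps1, Cyp2e1, Alb, Apoa1, Ttr and Cyp4a14 were named after their values had been seen. Promoters came from RefSeq.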

Additional observations from a re-analysis of the deposited data

Results flagged for a closer look

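Replicate 1 of the iso-α-acids group stood far below the other 4 mice of its group in 18 of the 19 varying sterol genes, by a gap larger than Dixon's 95% critical value allows for 5 samples. The gap to the nearest mouse of the group, on the log2 scale, was 2.50 in Hmgcs1, 1.46 in Pmvk, 1.39 in Mvd, 2.41 in Idi1 and 2.39 in Fdps. It was 0.84 in Fdft1, 2.21 in Sqle and 1.34 in Lss. Among the late enzymes it was 2.45 in Cyp51, 1.67 in Msmo1, 2.60 in Nsdhl, 1.29 in Hsd17b7, 0.42 in Ebp, 1.33 in Sc5d and 2.20 in Dhcr7. It was 1.05 in Insig1, 1.50 in Stard4 and 0.67 in Tmem97. Srebf2 was the exception among the varying genes. Over all varying probe sets, this mouse was as far below its group in 20.3% and as far above it in 12.9%.

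In the control group, replicate 2 stood above the other 4 mice by such a gap in 3 genes, with 0.46 in Pmvk, 0.66 in Fdps and 0.80 in Nsdhl. In all, 38 groups of 5 mice were looked at. Chance alone gives such a gap in about 5% of groups, and these genes vary together, so the gaps are not independent of each other.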

How the results depend on the processing

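The number of sterol genes that passed limma's test as higher was 0 with all mice. It ran from 0 to 11 when single mice were left out, and only leaving out replicate 1 of the iso-α-acids group gave any. It was 1 on varying probe sets alone, 16 on those without that mouse (added after the data were seen) and 1 with array weights, where 180 probe sets of all passed as higher. The number of genes with no overlap between the groups was 0 and ran from 0 to 14 when single mice were left out. It was 14 without replicate 1 of the iso-α-acids group and 1 without control replicate 2. The share over all varying probe sets without control replicate 2 was not computed. Rank products called 16 genes, and 5 on varying probe sets alone. With single mice left out, the log2 difference of 6 genes changed sign, ranging from -0.056 to 0.62 in Fdps, -0.017 to 0.12 in Ebp, -0.038 to 0.30 in Sc5d, -0.19 to 0.20 in Insig1, -0.20 to 0.22 in Stard4 and -0.80 to 0.11 in Thrsp. Ebp was also at -0.018 after another quantile normalization, and Insig1 at 0.068 and Stard4 at 0.045 with array weights. On varying probe sets without replicate 1, Insig1 was at 0.20, Stard4 at 0.22 and Thrsp at 0.11. For single sterol genes, 369 values under the alternatives kept direction and side of the threshold, 29 passed it newly and 20 changed sign. The causes were not tested. Mice of the same number did not deviate together (correlations of -0.205 to 0.233 over genes), so the labels' numbers were not taken as pairs. With the replicate block 0 sterol genes passed, and 21 probe sets of all passed as higher and 1 as lower. Array signal limits flat genes, which show neither change nor its absence.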
